A study of Rattus norvegicus with 8 samples.

Results

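Genes that mark pyramidal neurons, the glutamatergic projection cells of cortex and hippocampus, were followed through a rat stroke experiment. The genes were Nrgn, Tbr1, Slc17a7, Camk2a and Neurod6, and a probe set was taken when the platform annotation gave it 1 of these symbols and no other. This found 7 probe sets of 4 genes among 15866 probe sets and 10411 named genes: 3 for Camk2a, 2 for Slc17a7 and 1 each for Nrgn and Tbr1. No probe set carried the symbol Neurod6, which was not analysed here. All 7 passed the filter for dim signals used in the tests, a signal over 916 on 2 or more of the 8 arrays. It kept 10310 probe sets in all.

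Male Wistar rats aged 7 weeks received saline vehicle or candesartan, a blocker of the angiotensin AT1 receptor, for 5 days at 0.1 mg/kg per injection. Transient stroke was then made by closing the middle cerebral artery on the right side (MCAO) for 90 min before reperfusion, or a sham operation was done. At 2 h after surgery, a segment of the right hemisphere gave the RNA. The groups are named by operation and pretreatment, from sham vehicle to MCAO candesartan. Each of the 4 had 2 arrays, and each array held the pooled RNA of 2 rats, so that differences between single animals cannot be seen. The treatment text of the array MCAO candesartan 2 named no pretreatment, and its group came from its description. This array also stood apart in its signals: its log2 signals spread with an SD of 1.26, where the others had 1.21 or less, and it correlated with the rest at a mean of 0.951, where the others had 0.970 or more. The segment held neuronal RNA on every array. Of 10 listed pan-neuronal markers 9 had a probe set, all 9 passed the filter, and the lowest of their median signals was 7168. The brightest probe set of each gave 5108 or more on every array, with the lowest value that of Rbfox3 on sham candesartan 2.

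Nrgn encodes neurogranin, a small postsynaptic protein that holds calmodulin until calcium rises. Camk2a encodes the alpha subunit of calcium/calmodulin-dependent kinase II (CaMKII), a main protein of the excitatory synapse, and its mRNA is carried into dendrites. Slc17a7 encodes VGLUT1, which loads glutamate into the synaptic vesicles of cortical and hippocampal pyramidal cells. Tbr1 and Neurod6 encode transcription factors of the excitatory lineage, of the T-box and basic helix-loop-helix families. In a bulk sample, fewer cells of a type and less RNA per cell cannot be told apart.

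The promoters are shown because Nrgn, Camk2a and Tbr1 each had a probe set whose signal was highest in the same group, MCAO candesartan, as described below. The stretches are the 250 bases before each gene's start in RefSeq (assembly GRCr8), printed 5′ to 3′ on the gene's strand, for Nrgn (chr8:45452418-45452667, minus strand), Camk2a (chr18:56648930-56649179, plus strand), Slc17a7 (chr1:104785955-104786204, plus strand) and Tbr1 (chr3:66759553-66759802, plus strand). Capitals mark matches, on either strand, to the E-box CAGATG or the cyclic AMP response half-site TGACG.
Nrgn: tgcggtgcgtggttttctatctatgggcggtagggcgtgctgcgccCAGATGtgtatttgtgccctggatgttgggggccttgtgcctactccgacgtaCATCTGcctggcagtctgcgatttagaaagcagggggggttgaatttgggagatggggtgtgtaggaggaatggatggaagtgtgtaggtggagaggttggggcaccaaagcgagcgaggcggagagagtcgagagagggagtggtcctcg
Camk2a: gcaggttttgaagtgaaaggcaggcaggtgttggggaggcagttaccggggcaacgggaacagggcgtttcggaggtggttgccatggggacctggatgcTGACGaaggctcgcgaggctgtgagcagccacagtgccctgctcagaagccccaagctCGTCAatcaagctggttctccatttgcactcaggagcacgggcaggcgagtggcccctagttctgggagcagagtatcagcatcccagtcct
Slc17a7: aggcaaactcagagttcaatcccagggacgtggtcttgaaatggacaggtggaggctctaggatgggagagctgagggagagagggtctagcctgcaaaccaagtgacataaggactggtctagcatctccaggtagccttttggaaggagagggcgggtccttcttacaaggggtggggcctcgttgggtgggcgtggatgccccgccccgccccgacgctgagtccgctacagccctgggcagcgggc
Tbr1: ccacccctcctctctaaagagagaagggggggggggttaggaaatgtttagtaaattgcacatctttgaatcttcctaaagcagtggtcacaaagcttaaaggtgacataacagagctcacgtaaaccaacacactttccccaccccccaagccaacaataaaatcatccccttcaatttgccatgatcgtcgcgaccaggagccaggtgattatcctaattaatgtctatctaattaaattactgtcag
The Nrgn promoter held CAGATG at 204 and 151 bases before the start, and the Camk2a promoter held TGACG at 150 and 92 bases before it. Neither motif was in the windows of Slc17a7 and Tbr1, and the other motifs searched, CAGCTG and TCACACC, were in none of the 4. Over 33469 rat promoters of the same length, CAGATG was present in 14%, CAGCTG in 12%, TCACACC in 3.22% and TGACG in 18.2%. No searched motif was shared by Nrgn, Camk2a and Tbr1.

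With vehicle, the pools of stroke and sham rats overlapped for every marker probe set, while the highest signals of Nrgn, the brightest Camk2a probe set and Tbr1 were on the arrays of rats that had both candesartan and stroke. None of these differences passed the test across all probe sets. Signals below are the deposited linear intensities, given as pool 1 and pool 2 of a group, and differences are in log2(signal + 370), a scale on which dim probe sets show less than their full change. Tests used limma with Benjamini-Hochberg adjustment over the 10310 probe sets, with a call at an adjusted p under 0.05. With 2 pools against 2, an exact permutation test of a single probe set cannot go below 0.333, so the p-values rest on the spread that limma pools over probe sets and groups, and the number of arrays limits the precision.

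Nrgn had signals of 31689 and 28415 in sham vehicle against 35499 and 27335 in MCAO vehicle. With candesartan they were 28217 and 31222 after sham and 39886 and 68455 after MCAO. Both MCAO candesartan pools lay above the other 6 arrays, and the other 3 groups overlapped. The pools of that group also stood far apart, and the higher one came from the array that differs from the rest. The mean was 54170 ± 20202 (SD, n = 2 pools) there against 29719.8 ± 2125 in sham candesartan, a ratio of 1.82. On the log2 scale the difference between them was 0.81 ± 0.22 (SE; adjusted p = 0.222 by limma), and against MCAO vehicle it was 0.74 ± 0.22 (adjusted p = 0.253). Without MCAO candesartan 2 these became 0.42 and 0.35. Without MCAO candesartan 1, which left 1 array in that group, they became 1.20 and 1.13. In vehicle rats the difference between MCAO and sham was 0.05 (adjusted p = 0.988), with a 95% interval of -0.43 to 0.54.

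The brightest Camk2a probe set, 1388187_at, gave 5186 and 3273 in sham vehicle against 4402 and 2412 in MCAO vehicle, and with candesartan 6655 and 2217 after sham against 15879 and 10932 after MCAO. Both MCAO candesartan pools were well above the other 6 arrays, and pool 1 was above pool 2 in all 4 groups. That order of pools occurred for 5.27% of all probe sets tested, and the opposite order for 6.22%. The MCAO candesartan mean was 13406 ± 3498 (SD, n = 2 pools), which was 3.02 times the sham candesartan mean of 4436 ± 3138 and 3.93 times the MCAO vehicle mean of 3407 ± 1407. The difference was 1.67 ± 0.41 (log2, SE) from sham candesartan and 1.90 ± 0.41 from MCAO vehicle, both at an adjusted p = 0.194 by limma. It was the largest difference of any of the 7 probe sets, and it also had the widest intervals, 0.76 to 2.58 and 0.99 to 2.80. The size depended on the sham candesartan pools: without pool 2 of that group the first difference was 0.95 and without pool 1 it was 2.39.

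The other Camk2a probe sets did not share this pattern. The signals of 1389824_at ran from 2360 to 3038 in the 4 vehicle arrays and from 3229 to 3758 in the 4 candesartan arrays. They separated by pretreatment and not by operation, with 0.37 ± 0.15 (log2, SE) both after sham (adjusted p = 1 by limma) and after MCAO (adjusted p = 0.347). The signals of 1368935_at were dim, between 568 and 984 on all arrays, and passed the filter through only 2 of them. They overlapped in every comparison. The correlations between Camk2a's own probe sets over the 8 arrays were -0.38 to 0.37, so the gene has no single pattern on this platform. The files do not say which part of the transcript each probe set reads.

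Slc17a7 read by 1368987_at gave 13783 and 14047 in sham vehicle against 15756 and 11646 in MCAO vehicle, and with candesartan 13557 and 9280 after sham against 14624 and 19839 after MCAO. Both MCAO candesartan pools lay above both sham candesartan pools, but the lower one was below MCAO vehicle 1. The difference from sham candesartan was 0.59 ± 0.20 (log2, SE; adjusted p = 0.315 by limma) and that from MCAO vehicle 0.32 ± 0.20 (adjusted p = 0.520). Without sham candesartan 2 the first was 0.32. Without MCAO candesartan 1, which left 1 array in that group, it was 0.80. The other probe set, 1368986_at, gave 5434 and 6683, 6267 and 4005, 5805 and 3312, and 5932 and 5245 in the same order of groups. Its groups overlapped in every comparison, with 0.32 ± 0.24 from sham candesartan (adjusted p = 0.618), although it followed the first over the 8 arrays with a correlation of 0.70. Without sham candesartan 2 that difference turned to -0.05, and without sham candesartan 1 it was 0.69.

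Tbr1 gave 1208 and 1408 in sham vehicle against 1277 and 1181 in MCAO vehicle, and with candesartan 1546 and 1020 after sham against 1841 and 2406 after MCAO. As with Nrgn, both MCAO candesartan pools exceeded the other 6 arrays and the remaining groups overlapped. The mean was 2124 ± 399 (SD, n = 2 pools) against 1283 ± 372 in sham candesartan and 1229 ± 68.2 in MCAO vehicle. The differences were 0.60 ± 0.19 (log2, SE; adjusted p = 0.281 by limma) and 0.63 ± 0.19 (adjusted p = 0.253). Without sham candesartan 2 the first was 0.37. Without MCAO candesartan 1, which left 1 array in that group, the second was 0.80.

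**Figure D1:**
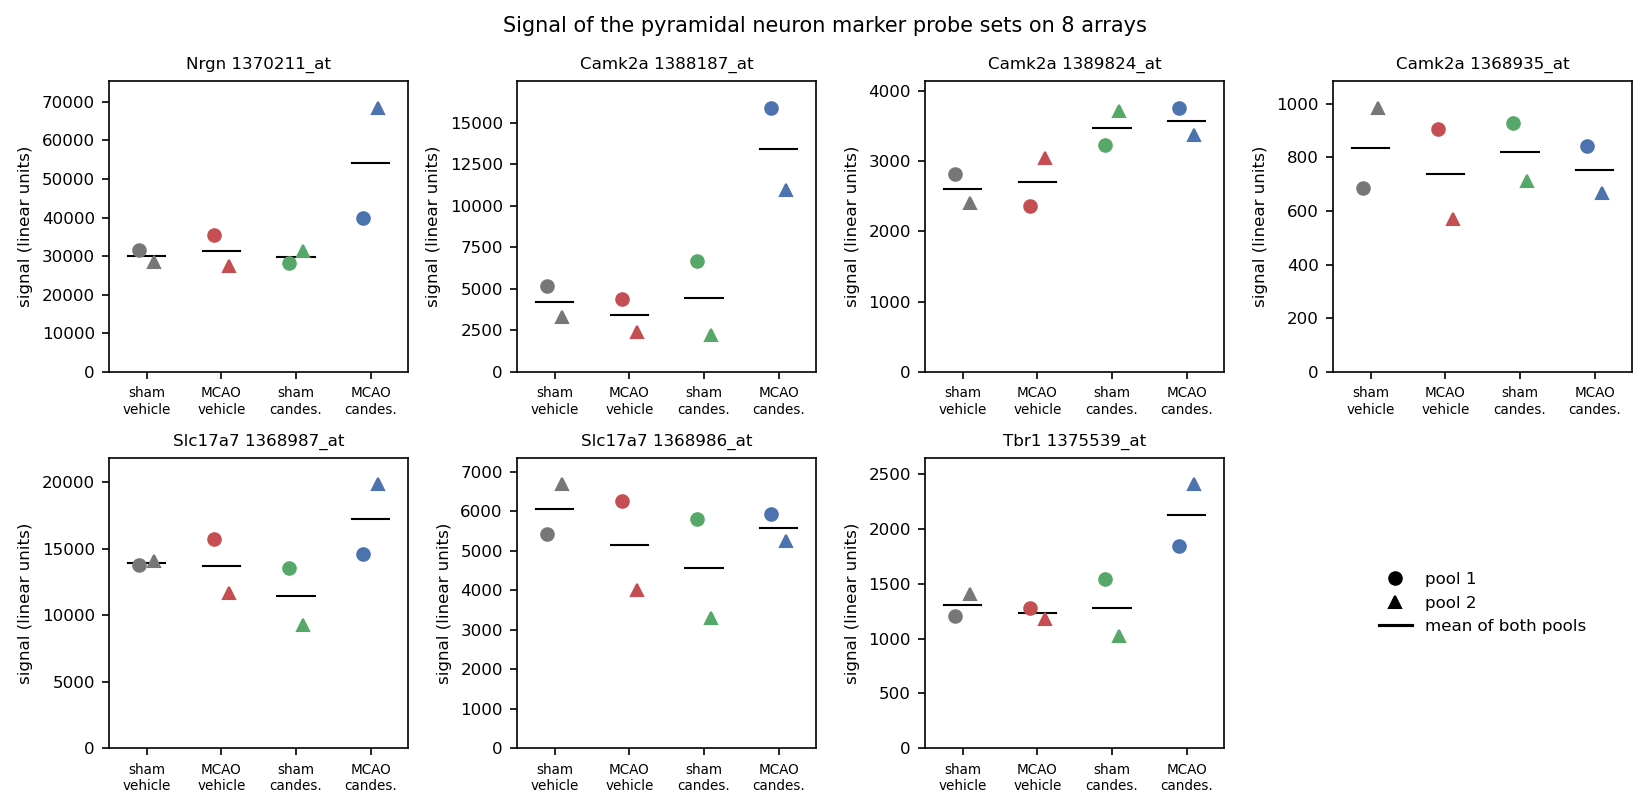
Signal in linear units (y axis, from 0, a separate scale per panel) of the 7 probe sets in the 4 groups (x axis). Circles are pool 1, triangles pool 2 and bars the mean of both; the MCAO candesartan points of Nrgn, Camk2a 1388187_at and Tbr1 stand above all others, while those of the other 4 probe sets do not.

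Over the 7 probe sets, 0 were called in any of the 5 comparisons. The shares called of all probe sets were 0.262% for MCAO against sham with vehicle, 0.242% for the same with candesartan, 0.0679% for candesartan against vehicle after MCAO, 0% for candesartan against vehicle after sham and 0.0194% for the interaction, so 0 of 7 is near the background. At an unadjusted p under 0.05 the members numbered 0, 4, 4, 1 and 3 in the same order, where all probe sets gave 7.04%, 12.4%, 13.1%, 3.92% and 8.87%.

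With vehicle, the pools of MCAO and sham overlapped for 7 of 7 probe sets, while both MCAO pools lay above both sham pools for 24.6% of all probe sets and below for 20.6%. With candesartan, both MCAO pools were above both sham pools for 4 of 7 (background 16.9%) and below for 0 (21.4%). After MCAO, both candesartan pools were above both vehicle pools for 4 of 7 (18%) and below for 0 (23.8%). After sham, 1 of 7 was above, Camk2a 1389824_at (18.9%), and 1 was below, Slc17a7 1368987_at (14.9%). Both MCAO candesartan pools stood above the other 6 arrays for 3 of 7, against 7.06% of all probe sets. Several of these counts use the same 2 MCAO candesartan arrays, so they are not separate evidence. The members were also chosen with earlier results of these data known, so the counts beside the background shares are descriptions.

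The median difference of the 7 probe sets was -0.07 (log2) for MCAO against sham with vehicle and 0.59 with candesartan, against 0.01 and -0.03 for all probe sets. For candesartan against vehicle it was 0.37 after MCAO and -0.04 after sham, against -0.03 and 0.01. The order of group means put MCAO candesartan first for Nrgn, all Camk2a probe sets but the dim one, Slc17a7 1368987_at and Tbr1. For Nrgn, Camk2a 1388187_at and Tbr1 the other 3 groups had overlapping pools and thus no order among them.

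The interaction asks whether the difference between MCAO and sham depended on the pretreatment. It was 0.76 ± 0.31 (log2, SE) for Nrgn, 1.97 ± 0.58 for Camk2a 1388187_at, 0.62 ± 0.29 for Slc17a7 1368987_at, 0.57 ± 0.35 for Slc17a7 1368986_at and 0.67 ± 0.27 for Tbr1. The adjusted p by limma was 0.466 for Camk2a 1388187_at and between 0.551 and 0.628 for the other 4. Leaving out 1 array moved these values widely. Nrgn had 0.37 without MCAO candesartan 2 and 1.14 without MCAO candesartan 1. The others were lowest without sham candesartan 2 and highest without sham candesartan 1, at 1.25 and 2.69 for Camk2a 1388187_at, 0.36 and 0.89 for Slc17a7 1368987_at, 0.19 and 0.94 for Slc17a7 1368986_at and 0.44 and 0.90 for Tbr1. The interactions of Camk2a 1389824_at and 1368935_at were 0.00 and 0.05. In the fit of all 8 arrays, a dependence of the stroke difference on candesartan was not shown for any member.

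**Figure D2:**
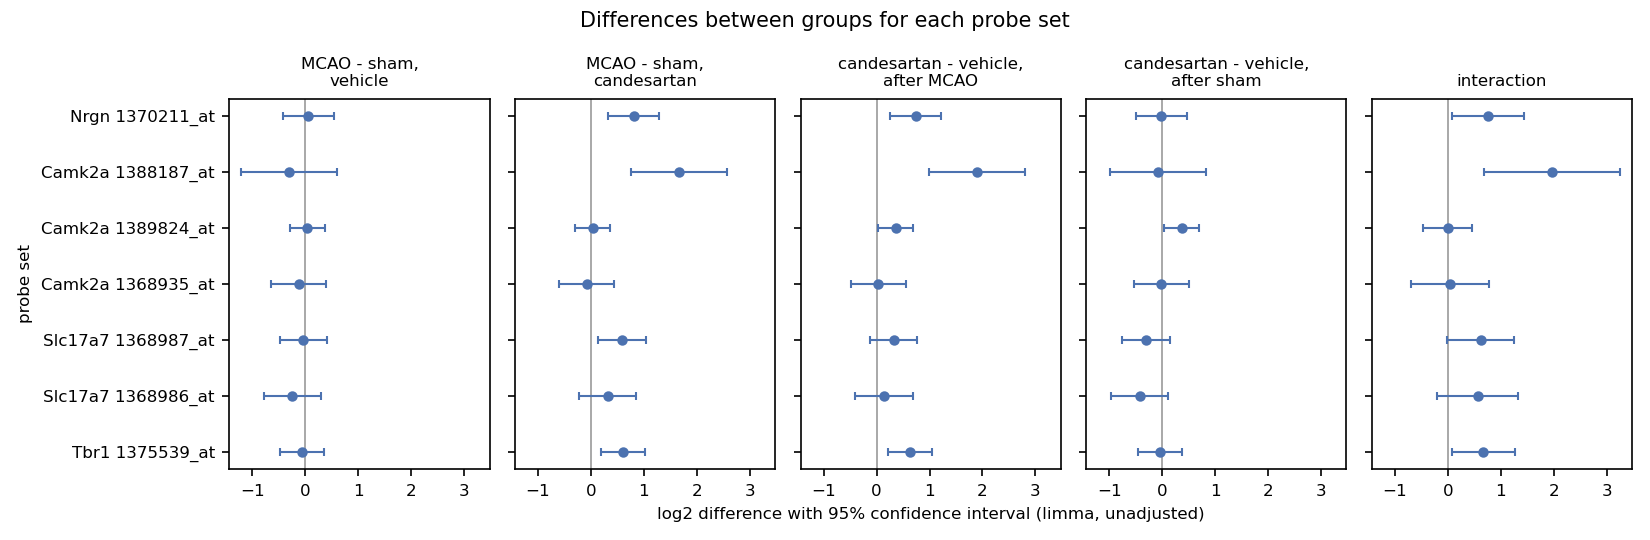
Differences on the log2(signal + 370) scale (x axis) of the 7 probe sets (y axis) in the 5 comparisons, as points with unadjusted 95% limma intervals. With vehicle and after sham the points lie near 0 or their intervals reach it, except Camk2a 1389824_at after sham at 0.37; with MCAO and candesartan combined, Camk2a 1388187_at lies farthest out at 1.67 and 1.90.

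The array MCAO candesartan 2 carried the highest Nrgn signal. The Nrgn intensity, which says nothing of its abundance relative to other genes, was above that of 99.25% of probe sets, and MCAO candesartan 2 gave higher values to bright probe sets in general: the 1031 brightest probe sets had a median deviation of 0.12 (log2) on it and of -0.08 to 0.03 on the other arrays. Quantile normalization, which gives every array the same distribution, lowered the Nrgn difference to 0.53 from sham candesartan (adjusted p = 0.215 by limma) and 0.42 from MCAO vehicle (adjusted p = 0.329). Under it Camk2a 1388187_at had 1.62 and 1.87 and Tbr1 had 0.66 and 0.71, and none of these was called. Camk2a 1388187_at was highest on MCAO candesartan 1, and Tbr1 on MCAO candesartan 2. The part of this array's distribution in the differences was not tested.

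The close relatives of Camk2a did not pass the test. The neuronal CaMKII beta gene Camk2b gave 19519 and 18548 in sham vehicle against 19810 and 16918 in MCAO vehicle, and with candesartan 17010 and 17445 after sham against 17345 and 15915 after MCAO, a difference of -0.05 with MCAO under candesartan (adjusted p = 0.890 by limma). Its second probe set, with signals from 10623 to 16301, differed in direction, with 0.24 from sham candesartan (adjusted p = 0.488) and 0.42 from MCAO vehicle (adjusted p = 0.264). Camk2d, the delta subunit, had 0.30 (adjusted p = 0.366) on its brightest probe set and -0.10 (adjusted p = 0.828) on a dimmer one, and Camk2g, the gamma subunit, 0.21 (adjusted p = 0.492). The largest of these was well below the 1.67 of Camk2a 1388187_at.

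Camk2n1, which encodes an inhibitor protein of CaMKII, was the single gene of the related lists that passed the test. Its brightest probe set, 1370853_at, gave 10135 and 9935 in sham vehicle against 11462 and 9029 in MCAO vehicle, and with candesartan 9296 and 9784 after sham against 16717 and 23670.4 after MCAO. The other 6 arrays lay between 9029 and 11462, below both MCAO candesartan pools. With candesartan it rose after MCAO by 1.03 ± 0.17 (log2, SE; adjusted p = 0.0412 by limma), with all pools of 1 group above those of the other. The call held in 7 of 19 alternative settings, among them each other scaling of the arrays, and was lost when any array but MCAO candesartan 1 was left out. Over the settings the adjusted p ran from 0.00156 to 0.321, and the difference was 0.79 without MCAO candesartan 2. Against MCAO vehicle the difference was 0.94 (adjusted p = 0.103) and the interaction 1.01 (adjusted p = 0.422). A second, dimmer Camk2n1 probe set, with signals of 1654 to 2315, had -0.32 (adjusted p = 0.374) in the comparison where the first rose.

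Slc17a6 encodes VGLUT2, the vesicular glutamate transporter used mainly by thalamic and other subcortical neurons. It gave 7835 and 8330.3 in sham vehicle against 8530.3 and 7782 in MCAO vehicle, and with candesartan 8632 and 7739.9 after sham against 5694 and 5514 after MCAO. Both MCAO candesartan pools were below the other 6 arrays, the reverse of Nrgn and Tbr1. The difference was -0.52 ± 0.12 (log2, SE; adjusted p = 0.168 by limma) from sham candesartan and -0.51 (adjusted p = 0.195) from MCAO vehicle, so it did not pass the test. Slc17a8, the third transporter of this family, had no probe set under its symbol.

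Markers of thalamus and hypothalamus had lower summed signals in MCAO candesartan than in sham candesartan, and overlapped with MCAO vehicle. Of 10 listed markers, Slc17a6 among them, 9 had a probe set, none of them at 0, and their summed signal was 35503 to 41777 in MCAO candesartan, 48111 to 53611 in sham candesartan, 39299.6 to 47519 in MCAO vehicle and 42401 to 47588 in sham vehicle. The 8 that passed the filter had a median difference of -0.44 (log2) between MCAO candesartan and sham candesartan, with 0 called. An unadjusted p under 0.05 was reached by 4, against 12.4% of all probe sets. Of the 8, 2 were above 0, Avp at 0.01 and Oxt at 0.10, against 44.7% of all probe sets. Pmch fell the most, by -0.71, with 6896 and 8872 in MCAO candesartan against 12507 and 13625 in sham candesartan. The pan-neuronal markers had a summed signal of 219406 to 244004 in MCAO candesartan and 189736 to 194336 in sham candesartan, with a median difference of 0.10 and 0 called. Most of that gap was Snap25, a synaptic vesicle fusion protein gene, with 86194 and 113989 against 62558 and 66725; the other 8 summed to 130015 to 133212 against 127178 to 127611. Interneuron markers, 8 with a probe set, summed to 65178 to 67939 in MCAO candesartan and 58733 to 61825 in sham candesartan. In MCAO vehicle the sum was 52750 to 64132. Their median difference from sham candesartan was 0.13, with 5 of 8 above 0 and 0 called. Sst had the arrangement of Nrgn and Tbr1, with 17122 and 19950 in MCAO candesartan and 12943 or less on all other arrays. Gad1, Calb2 and Slc32a1 had -0.10, -0.39 and -0.33. The 4 blood genes with a probe set summed to 80268 to 82409 in MCAO candesartan and 94605 to 110402 in sham candesartan. Most of that sum was the hemoglobin gene Hbb, with 75963 and 80107 against 104739 and 90325. Alas2 was also lower, while S100a8 and S100a9 were higher but too dim to pass the filter. The part of these other markers in the differences of the members was not tested.

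**Figure D3:**
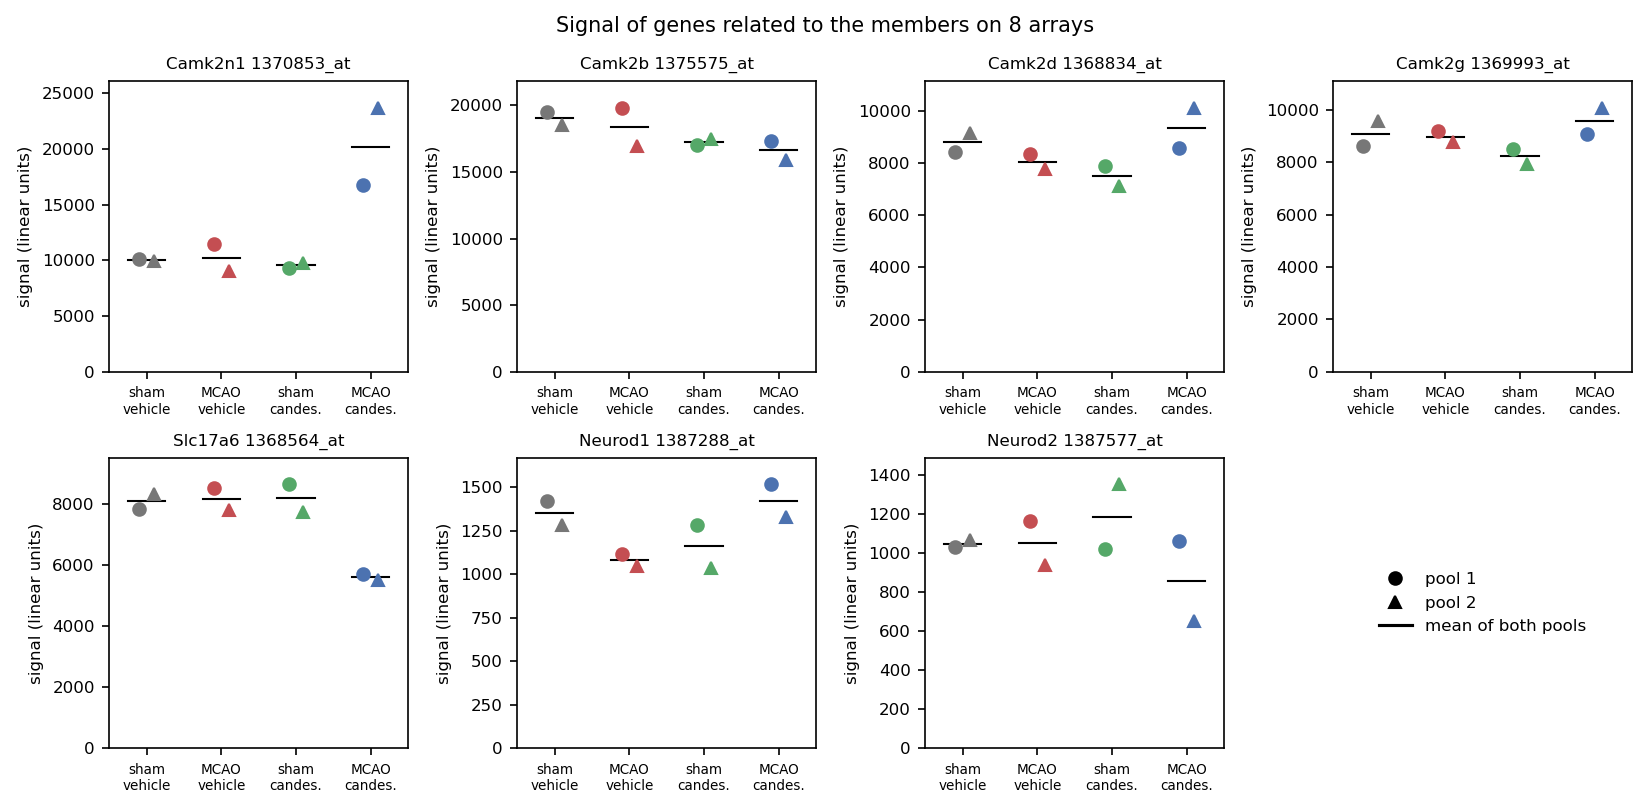
Signal in linear units (y axis, from 0) of 7 genes related to the members in the 4 groups (x axis), with circles for pool 1, triangles for pool 2 and bars for the mean. Camk2n1 is highest and Slc17a6 lowest in MCAO candesartan, with both pools outside the range of the other 6 arrays.

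Transcription factors of the same lineage had no called gene. Of 22 listed genes 14 had a probe set and 12 passed the filter. Their median difference between MCAO and sham was -0.10 (log2) with vehicle and 0.19 with candesartan, against 0.01 and -0.03 for all probe sets. With candesartan 9 of 12 were above 0, against 44.7% of all probe sets. Neurod1, a relative of Neurod6, gave 1418 and 1283 in sham vehicle against 1117 and 1044 in MCAO vehicle, and with candesartan 1284 and 1038 after sham against 1515 and 1327 after MCAO. Its differences were -0.25 with vehicle and 0.23 with candesartan (adjusted p = 0.837 and 0.584 by limma). Neurod2, another relative, had 0.00 with vehicle and -0.36 with candesartan (adjusted p = 0.513). Id2 and Tle4, a helix-loop-helix inhibitor and a corepressor, were the members of this list with the smallest p in the interaction or with vehicle. They had -0.39 and -0.27 with vehicle, and interactions of 0.67 (adjusted p = 0.522 by limma) and 0.42 (adjusted p = 0.563). The Id2 values were -0.10 and 0.38 without MCAO vehicle 2, and -0.68 and 0.96 without MCAO vehicle 1. A second Id2 probe set had -0.44 and 0.33 (adjusted p = 0.476 and 0.624), and a dimmer one of Tle4 had -0.06 and 0.03.

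Effector genes enriched in pyramidal cells had no called gene. Of 24 listed genes 23 had a probe set and passed the filter. With candesartan, 21 of 23 had a difference above 0 between MCAO and sham, where 44.7% of all probe sets did, and the median was 0.24 (log2) against -0.03. An unadjusted p under 0.05 was reached by 9 of 23, against 12.4% of all probe sets. With vehicle, 8 of 23 were above 0, against 52.5% of all probe sets, and the median was -0.07 against 0.01. These counts are descriptions, since the genes share arrays. The 1031 brightest probe sets of the arrays had a median of 0.10 in the first comparison and -0.06 in the second.

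Hpcal4, a neuronal calcium sensor, gave 3018 and 2816 in sham vehicle against 2453 and 2312 in MCAO vehicle, and with candesartan 1932 and 2088 after sham against 3159 and 3631 after MCAO. Its difference with candesartan was 0.66 ± 0.13 (log2, SE; adjusted p = 0.0817 by limma) and its interaction 0.92 (adjusted p = 0.231). Nptxr, the receptor-like neuronal pentraxin, had 0.58 ± 0.11 with candesartan (adjusted p = 0.0776) and an interaction of 0.65 (adjusted p = 0.446). The Nptxr signals were 13115 and 12794 in sham vehicle against 13036 and 11617 in MCAO vehicle, and with candesartan 10240.5 and 10632 after sham against 15831 and 15688 after MCAO. On these probe sets, the brightest of each gene, the sham candesartan pools were the lowest of the 4 groups and the MCAO candesartan pools the highest. A dimmer Hpcal4 probe set, with signals of 774 to 1861, had -0.75 with vehicle and 0.38 with candesartan (adjusted p = 0.194 and 0.42 by limma). Its MCAO candesartan signals differed from MCAO vehicle by 0.68, and its interaction was 1.12 (adjusted p = 0.239 and 0.399). The other Nptxr probe set was too dim to pass the filter. Rasgrf2, a calcium-responsive exchange factor for Ras, and Gda, guanine deaminase, had -0.49 and -0.46 with vehicle (adjusted p = 0.441 and 0.454) and interactions of 0.71 and 0.63. A second Gda probe set had -0.32 with vehicle and an interaction of 0.51 (adjusted p = 0.837 and 0.616 by limma).

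Calmodulin and its partners had a median difference between MCAO and sham of -0.07 (log2) with vehicle and 0.15 with candesartan over 21 genes that passed the filter out of 25 listed. With candesartan 14 of 21 were above 0, against 44.7% of all probe sets. Camk2n1 was the 1 gene called, against 0.242% of all probe sets, and 4 reached an unadjusted p under 0.05, against 12.4%. Gap43, the growth-associated protein that binds calmodulin as neurogranin does, had -0.03 (adjusted p = 0.962 by limma), and Pcp4, a related small calmodulin regulator, had 0.11 (adjusted p = 0.708). The list of vesicular glutamate transport and recycling had 10 genes with a probe set out of 12, 0 called, and medians of -0.03 with vehicle and -0.08 with candesartan. In it the brightest probe set of the astrocyte glutamate transporter Slc1a3 had -0.57 with vehicle (adjusted p = 0.441 by limma). Its other probe sets had -0.37 and 0.08. Glud1, glutamate dehydrogenase, had -0.35 with vehicle and -0.31 with candesartan, and its second probe set had -0.15 and -0.32.

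**Figure D4:**
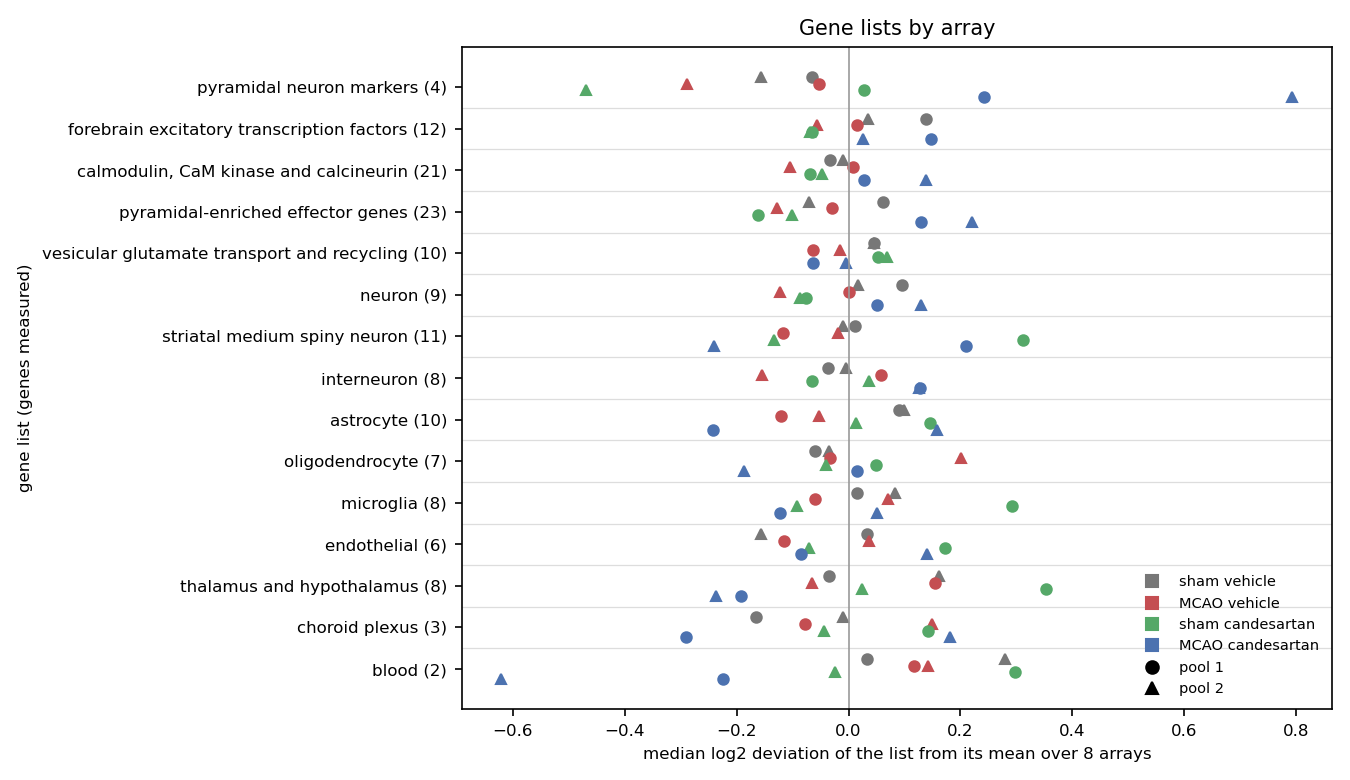
Median log2 deviation of each gene list from its mean over the 8 arrays (x axis), by list (y axis, with the number of genes measured). Circles are pool 1 and triangles pool 2, coloured by group. The pyramidal neuron markers, with the brightest probe set of each of 4 genes, reach 0.24 and 0.79 on the MCAO candesartan arrays. Over all 7 probe sets they reach 0.20 and 0.51. The interneuron markers (0.13 and 0.13) and the pyramidal-enriched effector genes (0.13 and 0.22) also have their own highest values on the MCAO candesartan arrays. The thalamus and hypothalamus markers have their own lowest values on these arrays (-0.19 and -0.24), as do the blood markers (-0.22 and -0.62).

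The genes whose signals ran most like those of the members over the 8 arrays are given as a description, since all points share arrays, pools and scaling. For Nrgn the nearest were Lin7b, Ppp2cb and Rpl19, each with a Pearson r of 0.97. For Camk2a 1388187_at they were Ddn, the postsynaptic protein dendrin, at 0.94, and Neurl1 and Nrdc, each at 0.93. For Slc17a7 1368987_at they were Sae1 at 0.97 and Atp2a2 and Itgb7, each at 0.96. For Tbr1 they were Gnas, Npdc1 and Cdk2ap1, each at 0.97. Members were left out of this search, so no member could be a nearest gene. Among the 21 pairs of member probe sets r ran from -0.55 to 0.85 with a median of 0.37, and it was highest between Camk2a 1388187_at and Tbr1 (0.85), Slc17a7 1368987_at and Tbr1 (0.83) and Nrgn and Tbr1 (0.82).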

How the data were processed

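Total RNA of pools of 2 rats was hybridised to 8 Affymetrix RAE 230A arrays, 2 per group. The deposited values are linear signal intensities made by the authors with GCOS, the Affymetrix software, per the submitters' processing notes. The software's settings are not given in the sources used here. Since trimmed means differed by no more than 0.000426% between arrays, the deposited scaling was kept.

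The 57 controls were left out, signals were raised by 370 and log2 was taken. Probe sets with a signal above 916 on at least 2 of 8 arrays were tested, which left 10310. The values 370 and 916 were the 20th and 40th percentiles of all signals, controls included. One model of 4 group means was fitted with limma 3.58.1 in R 4.3.3 (lmFit, eBayes with a trend, 4 residual degrees of freedom), with 5 contrasts and Benjamini-Hochberg adjustment within each. The method was tested on simulated data. Of the probe sets, 12783 had 1 symbol, 312 several and 2771 none, and 12773 of the first matched the RefSeq table of GRCr8.

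Each member probe set is named. From each related list, called genes, or otherwise the 2 genes with the smallest p in the interaction and the 2 with the smallest p for MCAO with vehicle, are named, with the close family of each member. The probe set of highest mean signal stood for a listed gene. The 10 marker lists of cell types or regions are shown by array, and each had 0 called genes. The members, lists and motifs were chosen with earlier results of these data known. Alternatives covered scaling, offset, filter, variance model, groups fitted, array weights, a replicate block and each array left out. The pool numbers do not pair the pools: correlations of pool differences between groups ran from -0.10 to 0.14 over 10310 probe sets.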

Additional observations from a re-analysis of the deposited data

Results flagged for a closer look

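Slc17a7 and Tbr1 had both pools of 1 group on opposite sides of the control mean in 2 settings. For Slc17a7 1368987_at, both candesartan pools lay below the vehicle mean after sham and above it after MCAO, and the difference between the candesartan effects was 0.62 (log2; adjusted p = 0.563 by limma). Slc17a7 1368986_at had the same arrangement, with a difference of 0.57 (adjusted p = 0.628). For Tbr1 1375539_at, both MCAO pools lay below the sham mean with vehicle and above it with candesartan, and the difference between the stroke effects was 0.67 (adjusted p = 0.551). None of these 3 differences passed the test, and the pools themselves overlapped with the controls in some of these comparisons. How often such arrangements occur among all probe sets was not counted.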

How the results depend on the processing

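The 7 member probe sets were recomputed under 19 settings, 8 of which left out 1 array. Of 648 values, 598 kept their direction and their side of the threshold, 7 passed the threshold that they had missed, 0 lost a call and 43 without a call changed sign. With the pool number as a replicate block, 1 member, Camk2a 1388187_at, was called in MCAO candesartan against sham candesartan (adjusted p = 0.00969 by limma) and 1 in MCAO candesartan against MCAO vehicle (adjusted p = 0.0196), and no other member call changed. When each array was left out in turn, 0 to 2 members were called for MCAO against sham with candesartan, 0 to 2 for candesartan against vehicle after MCAO and 0 to 1 for the interaction. All these calls came without MCAO candesartan 1, which left MCAO candesartan 2 as the only array of its group. Over those settings the median of the members ran from 0.32 to 0.77 (log2) for MCAO against sham with candesartan, from -0.25 to 0.08 for MCAO against sham with vehicle, from -0.27 to 0.12 for candesartan against vehicle after sham and from 0.36 to 0.89 for the interaction. Over all probe sets, the calls ran from 7 to 104 over the settings for MCAO with vehicle (27 in the reported fit), from 5 to 835 for MCAO with candesartan (25), from 0 to 986 for candesartan after MCAO (7) and from 0 to 296 for the interaction (2). The 104 came with array weights and the other upper limits without MCAO candesartan 1. The cause was not tested. Centring arrays on their median moved the median of all probe sets for the interaction from -0.05 to 0.08. Of 1588 values of the other named genes, 1505 kept direction and side, 12 gained a call and 12 lost one. The 12 lost were all the Camk2n1 call. The gains were of Hpcal4, Nptxr, Slc17a6, Gda, Slc1a3 and Camk2n1 without MCAO candesartan 1, and of Slc1a3 for MCAO with vehicle when only the groups compared were fitted. Dim probe sets such as Camk2a 1368935_at are limited by signal over background.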

Other observations

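Camk2a 1388187_at was higher in pool 1 than in pool 2 in every group, by 0.61 (log2) in sham vehicle, 0.78 in MCAO vehicle, 1.44 in sham candesartan and 0.52 in MCAO candesartan. Over all probe sets tested, pool 1 was above pool 2 in all 4 groups for 5.27% and below for 6.22%. The other Camk2a probe sets had no such order of pools.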
